A study of Homo sapiens with 9 samples.

Results

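The genes described here are the cytochrome P450 (CYP) genes and the UDP-glucuronosyltransferase (UGT) genes of families 1 and 2. They were taken by name from the gene table of the series, with a pattern that keeps numbered family members. CYP51A1 and rows with a pseudogene or antisense suffix in their name were left out. The pattern found 50 of 33861 genes, 45 of them CYP and 5 UGT. The pattern used no measured value, but the choice was made with earlier results of these data known. Another 29 rows with a CYP or UGT number in their name were not taken. By their names, 22 of them were pseudogenes and 4 antisense genes.

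CYP enzymes are haem proteins that insert an oxygen atom into their substrates, with electrons passed on by P450 oxidoreductase (POR) in the endoplasmic reticulum or by adrenodoxin in mitochondria. Families 1 to 3 mostly oxidise drugs and other foreign compounds, family 4 hydroxylates fatty acids, and other families make or degrade steroids, bile acids, retinoic acid and vitamin D. UGT enzymes attach glucuronic acid to drugs, bilirubin and steroids so that they can be excreted. Both classes are best known from hepatocytes, and several members are also active in the epithelium of the gut.

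The cells were HCT116, a human colorectal carcinoma line, measured by RNA sequencing after depletion of ribosomal RNA. Control cells (NC) received neither factor, Activin cells received activin A at 100 ng/mL for 5 days, and Activin+HGF cells received the same activin treatment and then hepatocyte growth factor (HGF) at 20 ng/mL for 5 days. Each group had 3 libraries, all from this 1 line, and how long NC cells were kept in culture is not stated, so the Activin+HGF cells differ from Activin cells in days as well as in HGF. The study asked how sequential activin and HGF, factors used to turn stem cells into endoderm and then liver progenitors, act on colorectal cancer cells.

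Libraries held 57453977 to 77016167 counts on genes, and mitochondrial genes took 18.01% to 20.1% of them in NC and 15.1% to 17.2% in treated cells. Activin library 2 had a TMM scaling factor of 0.988, beside 1.16 and 1.17 for the other Activin libraries, and Activin+HGF library 1 had 0.783, beside 0.926 and 0.899, so both stood apart from their groups. Among the 120 low counts (1 to 40) of the members, 45.8% could be divided by 4, beside 35.0% of the low counts of all genes. An even spread would give 25%, and what 1 count stands for is not stated. Levels are given as FPKM (counts scaled to gene length and library total, as deposited), which may be compared between genes. Fold changes come from edgeR's quasi-likelihood test on counts scaled by the TMM method. A gene was called when its Benjamini-Hochberg adjusted p over 20988 tested genes was under 0.05 and its fitted change reached 1 on the log2 scale in either direction. A floor of 3 counts was taken as the limit of detection, and it covers counting error only. In bulk RNA, fewer cells that express a gene and less RNA per cell cannot be told apart.

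Promoter windows in the RefSeq table (GRCh38.p14) existed for 37 of the 50 members, and none was held for CYP24A1, CYP4F12, CYP27B1 or CYP1B1. The 250 bases before the start site are shown for 6 members on which the results below turn. They are CYP11A1 and CYP4F11, which rose with activin, CYP2S1, which rose in Activin+HGF cells, the close relatives CYP4F3 and CYP4F2, which were called in opposite directions, and CYP1A1, the standard target of the aryl hydrocarbon receptor, which was called in no comparison. Capitals mark CAGAC, the box bound by SMAD proteins, which carry the activin signal, GCGTG, the core bound by the aryl hydrocarbon receptor, and AGGTCA, a motif bound by nuclear receptors, each on either strand.
CYP11A1: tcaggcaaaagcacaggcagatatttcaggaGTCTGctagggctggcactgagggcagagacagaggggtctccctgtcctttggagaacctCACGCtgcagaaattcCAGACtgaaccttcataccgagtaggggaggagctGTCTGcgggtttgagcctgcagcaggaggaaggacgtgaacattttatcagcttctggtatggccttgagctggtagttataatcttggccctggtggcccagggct
CYP4F11: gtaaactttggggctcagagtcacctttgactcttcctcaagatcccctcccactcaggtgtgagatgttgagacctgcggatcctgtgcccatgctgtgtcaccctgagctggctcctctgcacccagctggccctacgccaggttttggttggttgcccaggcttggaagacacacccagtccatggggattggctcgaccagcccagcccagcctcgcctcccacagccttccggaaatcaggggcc
CYP2S1: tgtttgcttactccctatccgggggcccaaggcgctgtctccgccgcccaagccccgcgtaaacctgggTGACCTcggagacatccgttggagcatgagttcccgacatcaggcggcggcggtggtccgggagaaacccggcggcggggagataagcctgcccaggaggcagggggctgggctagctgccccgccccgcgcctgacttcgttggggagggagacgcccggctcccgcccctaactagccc
CYP4F3: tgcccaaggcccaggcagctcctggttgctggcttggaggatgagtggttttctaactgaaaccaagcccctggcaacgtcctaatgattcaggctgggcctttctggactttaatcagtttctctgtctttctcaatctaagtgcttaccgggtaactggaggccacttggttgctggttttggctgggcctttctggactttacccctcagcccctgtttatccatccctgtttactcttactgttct
CYP4F2: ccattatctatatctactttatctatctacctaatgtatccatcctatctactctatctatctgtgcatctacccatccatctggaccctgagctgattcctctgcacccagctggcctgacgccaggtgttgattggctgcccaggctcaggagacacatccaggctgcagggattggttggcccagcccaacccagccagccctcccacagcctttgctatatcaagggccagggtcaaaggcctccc
CYP1A1: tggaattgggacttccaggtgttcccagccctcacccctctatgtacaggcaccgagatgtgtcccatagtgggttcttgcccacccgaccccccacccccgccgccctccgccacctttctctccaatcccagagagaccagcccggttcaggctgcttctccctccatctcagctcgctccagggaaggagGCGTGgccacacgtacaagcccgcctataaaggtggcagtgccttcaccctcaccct
The windows lie at chr15:74367647-74367896 (minus strand) for CYP11A1, chr19:15934868-15935117 (minus) for CYP4F11, chr19:41192969-41193218 (plus) for CYP2S1, chr19:15641062-15641311 (plus) for CYP4F3, chr19:15898075-15898324 (minus) for CYP4F2 and chr15:74725529-74725778 (minus) for CYP1A1. Positions were counted back from the start site, and the 3 motifs do not overlap one another in these windows. The CYP11A1 window held 3 SMAD boxes, beginning at -219, -142 and -107, and 1 GCGTG core on the minus strand at -158. The CYP4F11, CYP4F3 and CYP4F2 windows held none of the 3 motifs. CYP2S1 had 1 AGGTCA motif at -181 and CYP1A1 had 1 GCGTG core at -57. Over all 35116 windows of this length in the table, 38.0% held a SMAD box, 32.2% a GCGTG core and 12.1% an AGGTCA motif. Of the 50 windows of members, 38.0% held a SMAD box, 20.0% a GCGTG core and 24.0% an AGGTCA motif. These are matches of letters, and binding was not measured here.

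Most members were low in FPKM. A gene was taken as detected in a group when its FPKM was at least 0.5 in all 3 libraries. By this rule 13 of 50 members were detected in NC cells, 15 in Activin cells and 11 in Activin+HGF cells, while 38.8%, 38.5% and 35.5% of all 33861 genes were. The same 11 genes were detected in every group, namely CYP1A1, CYP2R1, CYP2S1, CYP2U1, CYP4F3, CYP4F11, CYP4F12, CYP4F22, CYP24A1, CYP26B1 and CYP27B1. CYP1B1 and CYP20A1 were also detected in NC and Activin cells, and CYP11A1 and CYP4V2 in Activin cells. The remaining 35 members were detected in no group, and 30 of the 50 stayed under 0.5 FPKM in every library. Without Activin+HGF library 1, 15 members were detected in Activin+HGF cells instead of 11, with CYP1B1, CYP4V2, CYP27A1 and CYP39A1 added. The share over all genes then went from 35.5% to 37.9%.

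**Figure D1:**
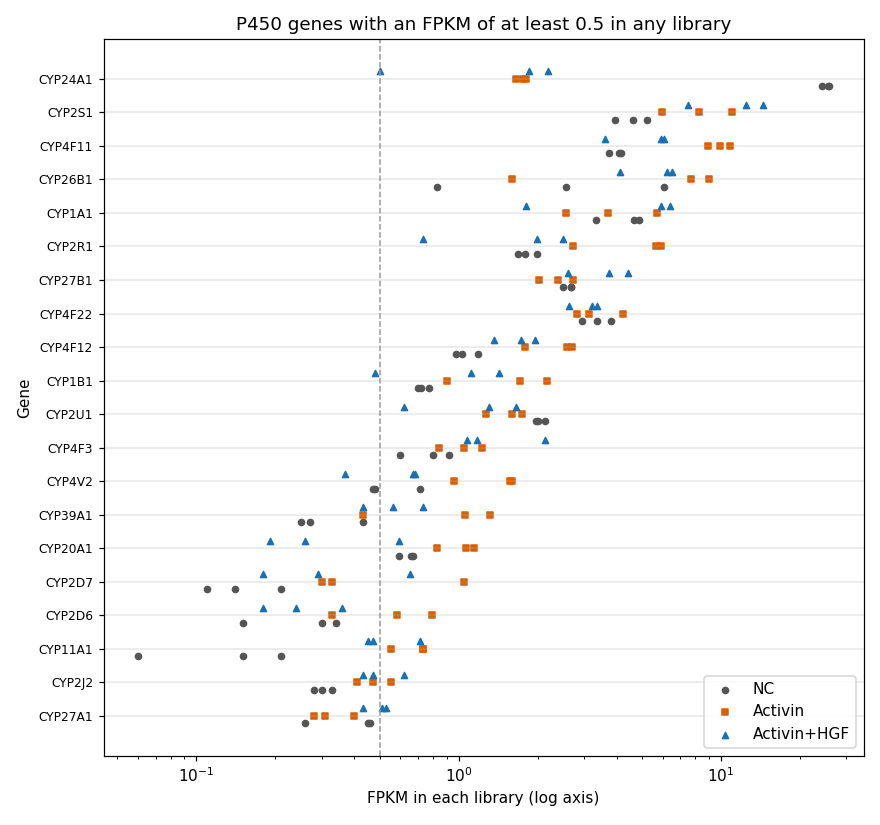
FPKM (log axis) of the members that reached 0.5 FPKM in any library, with 1 symbol for each of the 9 libraries and the dashed line at 0.5 FPKM. CYP24A1 was the highest member in NC cells, with 24.4 to 25.8 FPKM, and lay at 0.50 to 2.20 FPKM in the treated cells.

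Several genes of drug and bile acid metabolism in the liver were at or near 0. CYP3A4, which oxidises a large share of drugs, reached at most 0.10 FPKM in any library, and CYP3A7, the form of the fetal liver, at most 0.03 FPKM. CYP2C19, which also oxidises drugs, reached 0.03 FPKM. CYP7A1, the rate-limiting enzyme of bile acid synthesis, and CYP8B1, which sets the ratio of the bile acids, reached 0.03 and 0.08 FPKM. CYP2E1, which oxidises ethanol, was low but present throughout, at 0.08 to 0.16 FPKM. CYP3A5, the form found in gut as well as liver, lay between 0.03 and 0.34 FPKM in all 9 libraries with overlapping groups. CYP2D6, which oxidises many drugs, had 0.15 to 0.79 FPKM, and CYP2C8 had 0.15 to 0.22 FPKM in NC and at most 0.12 FPKM in treated libraries.

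Between NC and Activin cells, 7 of the 33 members that passed edgeR's filter on low counts were called. Activin cells had more of 6 of these transcripts and less of 1. The 6 were CYP2R1, CYP4F11, CYP4F12, CYP4V2, CYP11A1 and CYP39A1, and the gene that fell was CYP24A1. The background in this comparison, over every gene tested, was 6.78% for higher and 4.62% for lower. The members that could be tested had a median log2 fold change of 0.57, with 21 of 33 above 0, against a median of 0.02 over all genes. Between NC and Activin+HGF cells, 6 members were called, with CYP2J2, CYP2S1, CYP4F3 and CYP11A1 higher and CYP4F2 and CYP24A1 lower. The shares of all genes there were 11.3% higher and 10.2% lower. The median of the members was 0.33, against -0.03 over all genes. Both medians against NC stayed the same with UGT1A6, which had 0 counts in NC, set to its bound against the floor. Between Activin and Activin+HGF cells only CYP20A1 was called among members, and it was lower with HGF, where 4.21% of all genes were called lower and 3.87% higher. The median of the members in that comparison was -0.22, against -0.04 over all genes. edgeR called 0 members higher with HGF, DESeq2 and limma on log2(FPKM + 0.1) also called 0, and 4 members were higher at an unadjusted p under 0.05. Activin and NC cells serve in more than 1 of these comparisons, so the comparisons are not independent. The 17 members that were not tested reached at most 0.12 FPKM and 26 counts in a library.

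**Figure D2:**
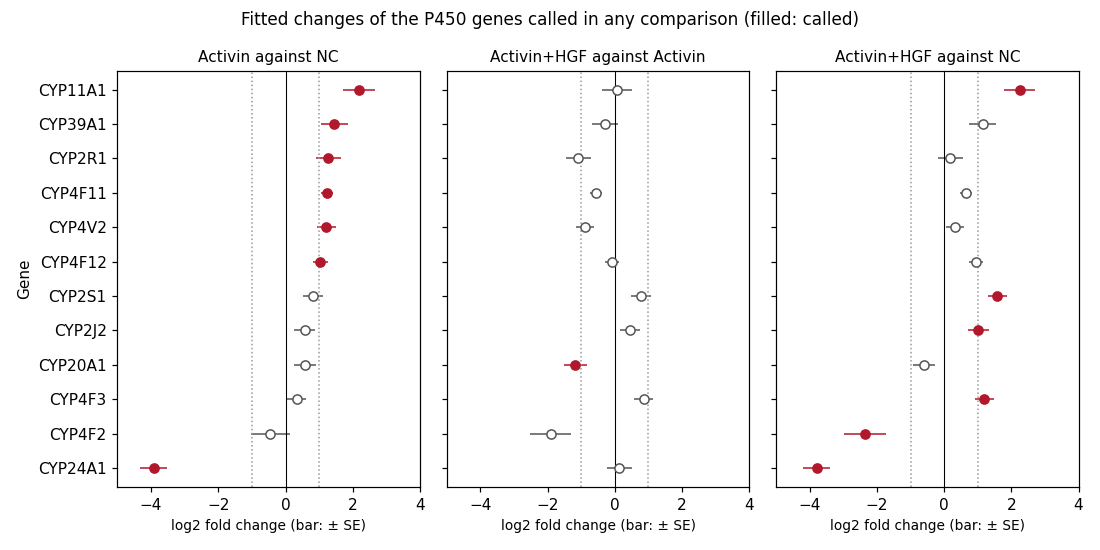
Fitted log2 fold changes with approximate standard errors (bars) of the 12 members called in at least 1 comparison, 1 panel for each comparison, with filled points for called values and dotted lines at a log2 fold change of 1 in either direction. CYP24A1 lies at -3.93 with activin and -3.79 with activin and HGF against NC, and at 0.13 between the treated groups.

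The choice of scaling shifted all genes in the comparisons with Activin+HGF cells. With library totals in place of TMM, the median log2 fold change of all genes was -0.38 for Activin+HGF against Activin, -0.30 for Activin+HGF against NC and 0.10 for Activin against NC. Higher against lower calls over all genes then went from 813 and 884 to 319 and 1805 in the first of these and from 2378 and 2141 to 1598 and 3187 in the second. The median of the members was then 0.64 with activin, 0.08 for Activin+HGF against NC and -0.61 for Activin+HGF against Activin. Among members the split of Activin+HGF against NC went from 4 higher and 2 lower to 2 and 2, with CYP2J2 and CYP4F3 no longer called. FPKM carries the scaling by totals, so an FPKM of Activin+HGF cells reads lower beside the other groups than the fitted fold change does.

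Vitamin D metabolism held the largest change among the called members. CYP24A1, which inactivates vitamin D by hydroxylating its side chain and is itself a classical target of the vitamin D receptor, lies on chromosome 20 from 54153446 to 54173986 on the minus strand. Its FPKM was 25.84, 24.36 and 25.57 in NC libraries, 1.76, 1.80 and 1.65 in Activin libraries and 0.50, 1.86 and 2.20 in Activin+HGF libraries. All 6 treated libraries lay far below all 3 NC libraries. The fitted fold change was 15.2-fold lower with activin (log2 fold change -3.93, SE 0.41, adjusted p = 0.000236) and 13.9-fold lower with activin and HGF (log2 fold change -3.79, SE 0.41, adjusted p = 0.000147). Between Activin and Activin+HGF cells the log2 fold change was 0.13 (SE 0.37, adjusted p = 0.848), and with library totals it was -0.16. Both calls against NC were kept in all 22 alternatives that were tried.

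Among the 45 CYP members, CYP24A1 was also the main transcript of NC cells. CYP51A1, which was left out of the members and of the sums below, had 29.13, 22.81 and 28.65 FPKM in NC libraries. The 45 CYP genes summed to 54.2 to 61.5 FPKM in NC libraries, and CYP24A1 made up 41.6% to 44.9% of that sum. In Activin cells the sum was 48.8 to 60.6 FPKM with 2.91% to 3.69% from CYP24A1, and in Activin+HGF cells it was 32.8 to 56.5 FPKM with 1.52% to 4.35%. The other 44 CYP genes together gave 29.86 to 35.96 FPKM in NC, 47.03 to 58.81 FPKM in Activin and 32.31, 54.65 and 48.37 FPKM in Activin+HGF libraries. Without CYP24A1, the sums of NC and Activin libraries did not overlap, whereas Activin+HGF library 1 lay within the NC range.

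**Figure D3:**
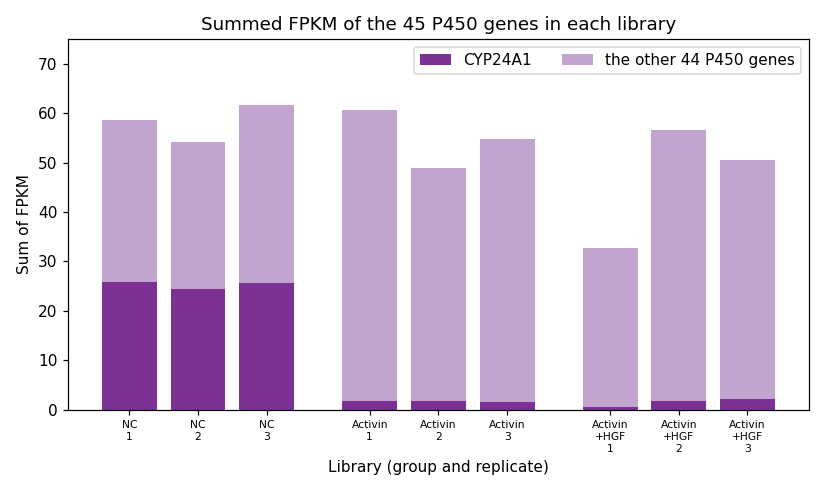
Summed FPKM of the 45 CYP genes in each library (bars, from 0), with CYP24A1 in dark and the other 44 genes in light colour. CYP24A1 fills 41.6% to 44.9% of the bar in NC libraries and 1.52% to 4.35% in the 6 treated ones.

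The 2 vitamin D genes that activate the hormone did not follow CYP24A1. CYP2R1, which makes the circulating form of vitamin D from its precursor (chromosome 11, 14877440 to 14892252, minus strand), had FPKM values of 1.99, 1.69 and 1.79 in NC, 5.91, 2.72 and 5.67 in Activin and 0.73, 2.50 and 1.99 in Activin+HGF libraries. All Activin libraries were above all NC libraries, with library 2 nearer to NC than the others. CYP2R1 was called 2.41-fold higher with activin (log2 fold change 1.27, SE 0.37, adjusted p = 0.0366). The call was lost in 11 of 22 alternatives, among them leaving out any NC library, Activin library 1 or 3 or Activin+HGF library 3, with log2 fold changes of 1.17 to 1.37 and adjusted p of 0.0508 to 0.115. Against Activin, Activin+HGF cells had a log2 fold change of -1.08 (adjusted p = 0.0761), which edgeR did not call. It was called lower in 4 of 20 other fits, namely without Activin library 2, by DESeq2 and by limma on both log2(FPKM + 0.1) and log2(FPKM + 1), with adjusted p of 0.0200 to 0.0391.

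CYP27B1, which makes the active hormone, had 2.51, 2.68 and 2.69 FPKM in NC, 2.73, 2.40 and 2.03 in Activin and 4.42, 3.73 and 2.62 in Activin+HGF libraries. Its log2 fold change between Activin and Activin+HGF cells was 0.98 (SE 0.26, adjusted p = 0.0347), under the fold minimum, and it was called there without Activin library 2 and without Activin+HGF library 3. VDR, the vitamin D receptor, was not called, with 2.37 to 3.50 FPKM in NC, 2.61 to 5.43 in Activin and 1.69 to 3.33 in Activin+HGF cells and adjusted p of 0.352 to 0.836 over the 3 comparisons. Its partner RXRA was not called either, at 4.99 to 6.88 FPKM over all libraries.

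Family 4 had several changes with activin, and 6 of its 8 members could be tested. These enzymes hydroxylate fatty acids and eicosanoids, and 5 of the 6 tested genes sit in a CYP4F cluster on chromosome 19 in the order CYP4F22, CYP4F3, CYP4F12, CYP4F2 and CYP4F11, from 15508525 to 15934867. CYP4F8, which lies between CYP4F22 and CYP4F3, reached at most 0.03 FPKM. With activin, 3 of these 6 passed the test as higher and 0 as lower, with 0 lower also at an unadjusted p under 0.05 and by DESeq2 and limma, beside 6.78% and 4.62% of all tested genes. Against NC, Activin+HGF cells had 1 called higher and 1 lower of 6, beside 11.3% and 10.2% of all tested genes, so this count is near the background.

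CYP4F11, which oxidises fatty acids and vitamin K, was the highest of the cluster in Activin cells. Its FPKM was 4.17, 3.75 and 4.10 in NC, 10.80, 8.97 and 9.90 in Activin and 3.62, 6.08 and 5.89 in Activin+HGF libraries. It was called 2.33-fold higher with activin (log2 fold change 1.22, SE 0.18, adjusted p = 0.00148), and all 22 alternatives kept the call. In Activin+HGF cells it stood between, with a log2 fold change of 0.66 against NC (adjusted p = 0.0189) and -0.57 against Activin (adjusted p = 0.0621), both below the fold minimum. CYP4F12, a fatty acid and drug hydroxylase, had 0.98, 1.03 and 1.19 FPKM in NC, 2.70, 1.79 and 2.59 in Activin and 1.73, 1.95 and 1.36 in Activin+HGF libraries. It was called 2.05-fold higher with activin (log2 fold change 1.04, SE 0.22, adjusted p = 0.00966), and limma on log2(FPKM + 1) alone lost the call. Every treated library was above every NC library, and against NC the Activin+HGF cells had a log2 fold change of 0.95 (adjusted p = 0.00901).

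CYP4F3 and CYP4F2, which both hydroxylate leukotrienes and fatty acids, were called in opposite directions in Activin+HGF cells. CYP4F3 had 0.80, 0.60 and 0.92 FPKM in NC, 1.23, 0.84 and 1.05 in Activin and 1.17, 2.14 and 1.08 in Activin+HGF libraries. It was called 2.29-fold higher than in NC (log2 fold change 1.20, SE 0.29, adjusted p = 0.0101). The call was lost in 6 of 22 alternatives. These were library totals, both limma fits, an adjusted p under 0.01, and leaving out NC library 2 or Activin+HGF library 2. Without either library the log2 fold change was 0.89 to 1.02 (adjusted p = 0.0469 to 0.0544). CYP4F2 had 0.29, 0.30 and 0.47 FPKM in NC, 0.46, 0.07 and 0.32 in Activin and 0.05, 0.06 and 0.04 in Activin+HGF libraries. It was called 5.14-fold lower than in NC (log2 fold change -2.36, SE 0.62, adjusted p = 0.0159), which rests on 12 to 19 counts a library with both factors. The call was lost in 3 of 20 alternatives, at an adjusted p under 0.01 and without NC library 3 or Activin+HGF library 3 (adjusted p = 0.0502 to 0.0629). Of the 100-base stretches of CYP4F2 transcripts, 2.56% also occur in CYP4F3, and 1.56% of those of CYP4F3 in CYP4F2, so a small part of their counts could have been split between them. Their promoter windows shown above were identical at 47.3% of aligned positions, and CYP4F2 and CYP4F11 at 64.9%. Pairs of CYP4F windows ran from 44.7% to 65.2%, and no unrelated windows were aligned, so these shares have no baseline. Only 1 window per gene was used, and another window of CYP4F11 was not aligned. The CYP4F3 window begins at 15641062, past the gene start of 15640897 in the deposited table. Whether the promoters of these genes are alike was therefore not settled. CYP4F22, a ceramide-forming hydroxylase of the skin barrier, was not called in any comparison and had 2.64 to 4.22 FPKM throughout.

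CYP4V2, a fatty acid hydroxylase mutated in an inherited eye disease, lies apart from the cluster on chromosome 4. Its FPKM was 0.48, 0.71 and 0.47 in NC, 1.57, 0.96 and 1.60 in Activin and 0.37, 0.67 and 0.68 in Activin+HGF libraries. It was called 2.32-fold higher with activin (log2 fold change 1.22, SE 0.28, adjusted p = 0.0129), with no overlap between these groups. The call was lost in 4 of 22 alternatives. These were limma on log2(FPKM + 1), an adjusted p under 0.01, and leaving out NC library 1 or 3 (adjusted p = 0.0596 to 0.0677). The Activin+HGF libraries overlapped with NC again.

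Among the 4 members that make steroid hormones, CYP11A1 alone was called. It cleaves the side chain of cholesterol, the entry step of steroid synthesis in mitochondria, and lies on chromosome 15 from 74337759 to 74367646. Its FPKM was 0.21, 0.06 and 0.15 in NC, 0.55, 0.73 and 0.73 in Activin and 0.47, 0.45 and 0.71 in Activin+HGF libraries. Every treated library was above every NC library. The fold change was 4.54-fold higher with activin (log2 fold change 2.18, SE 0.47, adjusted p = 0.00966) and 4.74-fold higher with activin and HGF (log2 fold change 2.24, SE 0.47, adjusted p = 0.00517), and limma on log2(FPKM + 1) alone lost these calls. CYP17A1, CYP19A1 and CYP21A2, which act further on in the pathway to androgens, oestrogens and corticoids, stayed at or below 0.22 FPKM. CYP21A2 shares 20.0% of its 100-base stretches with other genes, mainly its pseudogene.

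Of the 5 members that act on sterols and bile acids, CYP39A1 was called with activin. It hydroxylates an oxysterol on the way to bile acids. Its FPKM was 0.43, 0.25 and 0.27 in NC, 1.06, 0.43 and 1.32 in Activin and 0.43, 0.56 and 0.73 in Activin+HGF libraries. Activin library 2 equalled NC library 1. The fold change with activin was 2.72-fold higher (log2 fold change 1.44, SE 0.40, adjusted p = 0.0326), and it was lost in 10 of 22 alternatives, among them leaving out any NC library, Activin library 1 or 3 or Activin+HGF library 2 (log2 fold change 1.20 to 1.74, adjusted p = 0.0507 to 0.124). CYP27A1, a mitochondrial sterol hydroxylase, had 0.26 to 0.46 FPKM in NC, 0.28 to 0.40 in Activin and 0.43 to 0.53 in Activin+HGF libraries and was not called.

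The 21 xenobiotic members gave 14 tested genes. With activin 0 were called higher or lower by edgeR, with 3 higher and 0 lower at an unadjusted p under 0.05, 2 higher by DESeq2 and 0 by limma. Over all tested genes, 6.78% were called higher and 4.62% lower with activin. In Activin+HGF cells CYP2S1 and CYP2J2 were called higher than in NC, 2 of the 14, and 0 were lower. The shares over all tested genes there were 11.3% and 10.2%, so the count of higher members is near the background.

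CYP2S1, which is expressed in epithelia of the gut and airways and acts on retinoids and lipids, was the highest of the 21. It lies on chromosome 19 from 41193210 to 41207539. Its FPKM was 3.96, 5.25 and 4.61 in NC, 8.22, 10.99 and 5.98 in Activin and 7.48, 14.47 and 12.47 in Activin+HGF libraries. All treated libraries were above all NC libraries. The fold change was 3.0-fold higher with activin and HGF (log2 fold change 1.59, SE 0.30, adjusted p = 0.00292), a call kept in all 22 alternatives. With activin alone the log2 fold change was 0.81 (adjusted p = 0.0824), and the step from Activin to Activin+HGF was 0.78 (adjusted p = 0.102). With single libraries left out, the change with activin was called without Activin library 3. The step to Activin+HGF was called without Activin library 2.

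CYP2J2, which makes epoxides of arachidonic acid, had 0.28, 0.33 and 0.30 FPKM in NC, 0.55, 0.47 and 0.41 in Activin and 0.43, 0.62 and 0.47 in Activin+HGF libraries. It was called 2.03-fold higher with activin and HGF (log2 fold change 1.02, SE 0.32, adjusted p = 0.0320), just past the fold minimum. The call was lost in 11 of 20 alternatives, among them leaving out any NC library, Activin library 1 or 3 or Activin+HGF library 2 or 3 (log2 fold change 0.90 to 1.09, adjusted p = 0.0433 to 0.127).

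CYP1A1 and CYP1B1, which activate polycyclic compounds, were expressed but not called by edgeR. CYP1A1 had 4.89, 3.33 and 4.67 FPKM in NC, 2.57, 5.72 and 3.70 in Activin and 1.81, 6.42 and 5.90 in Activin+HGF libraries, with all groups overlapping. Its log2 fold changes against NC were -0.14 (SE 0.43) with activin and 0.39 (SE 0.43) with activin and HGF. CYP1B1 had 0.77, 0.72 and 0.70 FPKM in NC, 2.18, 0.90 and 1.71 in Activin and 0.48, 1.42 and 1.11 in Activin+HGF libraries, and a log2 fold change of 1.02 with activin (SE 0.35, adjusted p = 0.0729). CYP1B1 was called higher with activin in 4 of 20 other fits, by DESeq2, with only the 6 libraries compared, without Activin library 2 and without Activin+HGF library 1 (adjusted p = 0.0252 to 0.0376). CYP1A2, the hepatic neighbour of CYP1A1 on chromosome 15, was at most at 0.05 FPKM. CYP2U1, a fatty acid hydroxylase, had 1.98 to 2.14 FPKM in NC and 0.62 to 1.75 FPKM in treated libraries and was not called (adjusted p = 0.253 and 0.189 against NC). CYP2D6 and CYP2D7 share 13.5% and 13.3% of their 100-base stretches with other genes, mainly with each other, so their values are uncertain. CYP2D7 had 0.11 to 0.21 FPKM in NC and 0.18 to 1.05 FPKM in treated libraries (adjusted p = 0.0585 and 0.0613 against NC).

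The retinoic acid hydroxylase CYP26B1 was among the highest members and was uneven between libraries. Its FPKM was 2.57, 0.83 and 6.09 in NC, 9.05, 1.60 and 7.70 in Activin and 4.11, 6.22 and 6.50 in Activin+HGF libraries. The groups overlapped, and its log2 fold changes against NC were 0.82 (SE 0.65) and 1.11 (SE 0.65), with adjusted p of 0.443 and 0.224. CYP26A1 and CYP26C1, which have the same substrate, stayed at or below 0.20 and 0.02 FPKM.

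CYP20A1, a P450 without an established substrate, was the 1 member called between Activin and Activin+HGF cells. It had 0.66, 0.67 and 0.59 FPKM in NC, 1.07, 0.83 and 1.14 in Activin and 0.19, 0.59 and 0.26 in Activin+HGF libraries. It was 2.26-fold lower with HGF (log2 fold change -1.17, SE 0.33, adjusted p = 0.0432), with no overlap between these groups. The call was lost in 11 of 22 alternatives, among them leaving out any NC library, Activin library 1 or 3 or Activin+HGF library 1 or 3 (log2 fold change -1.27 to -0.93, adjusted p = 0.0590 to 0.117). Activin and Activin+HGF cells were not called against NC for this gene.

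All 5 UGT members had 0 counts in all 3 NC libraries. UGT1A1, the bilirubin-conjugating enzyme, UGT1A6, UGT1A10, UGT2A3 and UGT2B7 summed to 21, 26 and 16 counts in Activin and 23, 8 and 8 counts in Activin+HGF libraries. The highest single value was 0.06 FPKM. UGT1A6, the only UGT member tested, had 21, 16 and 0 counts in Activin and 19, 8 and 0 in Activin+HGF libraries and was not called (adjusted p = 0.116 and 0.0922 against NC). The UGT1A genes share their last exons, and 38.7% to 71.6% of their 100-base stretches occur in other genes, so their counts may be split. With the UGT1A rows summed the counts were 21, 22 and 16 in Activin and 19, 8 and 4 in Activin+HGF libraries. With 0 counts in NC, the summed row passed the filter on low counts only through treated libraries, so it could not be called lower. It was called higher against NC in both (adjusted p = 0.0158 and 0.0147), and these calls add no support beyond the counts. The means were at least 5.78-fold and at least 3.59-fold above the floor of 3 counts in the smallest NC library. Leaving out single libraries in this summed fit was chosen after seeing the data, and without NC library 3 the call with activin was lost (adjusted p = 0.0538). The bound for Activin+HGF rests on library 1, without which it was at least 1.82-fold, with the call kept (adjusted p = 0.0392). The summed row was at 0.28 CPM (SD 0.07, n = 3) in Activin and 0.18 CPM (SD 0.15, n = 3) in Activin+HGF cells.

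The proteins that serve these enzymes were read from lists of fixed genes. Of 10 electron partners, 0 were called higher and 1 lower with activin, where 6.78% and 4.62% of all tested genes were called. In Activin+HGF cells against NC 1 was higher and 1 lower, where 11.3% and 10.2% of all tested genes were called. DESeq2 and limma also called 0 higher with activin, and 3 partners were higher and 3 lower at an unadjusted p under 0.05. POR, which feeds all microsomal P450 enzymes, had 12.91 to 13.96 FPKM in NC and 18.21 to 31.88 FPKM in treated libraries, without overlap, and log2 fold changes of 0.87 (adjusted p = 0.0153) and 0.91 (adjusted p = 0.00800) that stayed below the fold minimum. CYB5B, the mitochondrial cytochrome b5, fell in both, from 85.57 to 127.29 FPKM in NC to 12.28 to 41.55 in treated libraries (log2 fold change -1.82 and -1.73). CYB5A, the microsomal form, rose in Activin+HGF cells against Activin (log2 fold change 1.92, adjusted p = 0.00479). Of the 5 genes for supply of UDP-glucuronate and cleavage of glucuronides, 0 were called in any comparison by edgeR, DESeq2 or limma. Over the 3 comparisons, edgeR called 3.87% to 11.3% of all tested genes higher and 4.21% to 10.2% lower. A count of 0 among 5 is near that background. At an unadjusted p under 0.05 there were 0 of these 5 genes with activin, 1 between Activin and Activin+HGF, and 3 between NC and Activin+HGF cells.

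Of 25 receptors and regulators of P450 genes, 20 were tested. With activin 3 were called higher and 0 lower, with 1 lower at an unadjusted p under 0.05 and 0 by DESeq2 and limma, and in Activin+HGF cells 4 were higher and 2 lower than in NC, beside shares over all tested genes of 6.78% and 4.62% with activin and 11.3% and 10.2% with both factors. CEBPB, a transcription factor of liver and inflammation, rose from 9.54 to 13.73 FPKM in NC to 53.51 to 113.56 in treated libraries (log2 fold change 2.55 and 3.17). TIPARP and AHRR, both targets and repressors of the aryl hydrocarbon receptor, rose too, TIPARP by a log2 fold change of 1.44 and 2.0 and AHRR by 1.29 and 1.69. The receptor AHR itself was not called (adjusted p = 0.962 and 0.0652 against NC), nor was CYP1A1 as given above. RARA, a retinoic acid receptor, was higher and NR5A2 and PPARA, regulators of bile acid and fatty acid genes, were lower in Activin+HGF cells than in NC. NR1I2 and NR1H4, the xenobiotic and bile acid receptors, were at or below 0.02 and 0.06 FPKM in every library.

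Of 49 other conjugating and oxidising enzymes in the table, 40 were tested. With activin 6 were called higher and 0 lower, with 7 lower at an unadjusted p under 0.05 and 0 by DESeq2 and limma, and in Activin+HGF cells 7 were higher and 3 lower than in NC. The shares over all tested genes were 6.78% and 4.62%, and 11.3% and 10.2%. NQO1, a quinone reductase, had 85.62 to 90.35 FPKM in NC, 208.05 to 237.15 in Activin and 225.01 to 342.71 in Activin+HGF libraries (log2 fold change 1.25 and 2.06 against NC). SULT2B1, a cholesterol sulfotransferase, AKR1C3, which reduces steroids and prostaglandins, its close relative AKR1C1 and the carboxylesterase CES1 also rose in both, ALDH1A1 with activin, and AKR1C2 and TPMT in Activin+HGF cells against NC. FMO4, GSTA2 and GSTA4 were lower there. CES1 had 0 counts in NC, so it passed the filter on low counts only through treated libraries. ALDH1A1 had 4, 0 and 8 counts in NC and 70, 19 and 55 in Activin libraries, and passed the filter only through the Activin libraries. Neither CES1 nor ALDH1A1 could have been called lower than in NC there, so their calls add no support beyond the counts. AKR1C genes are near-identical, so reads may be split among them. Among 9 tested export pumps, ABCC2, which moves glucuronides into bile, fell from 39.72 to 56.22 FPKM in NC to 4.80 to 14.83 in treated libraries (log2 fold change -2.13 and -2.71). ABCC3, which exports them on the other side of the cell, rose from 3.36 to 3.64 FPKM to 7.46 to 11.96 (log2 fold change 1.58 and 1.48). ABCB1, the drug pump, rose in both as well, and ABCC4 fell with activin. With activin 2 of the 9 pumps were called higher and 2 lower. Activin+HGF cells had 2 higher and 1 lower than NC, beside the same shares of all tested genes as above. Of 3 tested relatives outside the name pattern 0 were called in any comparison by edgeR, DESeq2 or limma. Over the 3 comparisons, edgeR called 3.87% to 11.3% of all tested genes higher and 4.21% to 10.2% lower. A count of 0 among 3 is near that background. At an unadjusted p under 0.05 there was 1 relative, CYP51A1 of cholesterol synthesis between Activin and Activin+HGF cells (log2 fold change 0.83, adjusted p = 0.0414).

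Markers of the line and of other cell types were read beside these genes. Of 8 markers of colorectal epithelium, 6 were at 0.5 FPKM or more in all 9 libraries, with sums of 555 to 875 FPKM, and VIL1 and CDX1 were at or near 0. Of 7 hepatocyte markers 1 passed that level, and their sums were 0.77 to 0.97 FPKM in NC, 2.38 to 3.43 in Activin and 2.97 to 4.02 in Activin+HGF libraries. SERPINA1 gave most of it, ALB was at 0.01 to 0.26 FPKM, TTR was listed at 0 in all libraries but Activin+HGF library 1 (0.05 FPKM), and FGB was at or below 0.02 FPKM. Of the 5 that could be tested, SERPINA1, TF and APOB were called higher with activin, and all 5 were called higher in Activin+HGF cells against NC, SERPINA1 and TF by log2 fold changes of 2.01 and 2.39, ALB by 2.39 (adjusted p = 0.0416) and APOA1 by 4.22 (adjusted p = 0.0305), which went from at most 0.05 FPKM in NC to 0.42 to 0.55 FPKM. Over all tested genes, 6.78% were called higher with activin and 11.3% in Activin+HGF cells against NC. APOB had 0 counts in NC and at most 0.06 FPKM in any library, so it passed the filter on low counts only through treated libraries. APOA1 had 4, 0 and 4 counts in NC and 50, 42 and 46 in Activin+HGF libraries, and passed the filter only through the latter group. Neither APOB nor APOA1 could have been called lower than in NC there, so their calls add no support beyond the counts. Of 5 leukocyte markers 1 passed that level, with sums of 0.80 to 1.63, 5.16 to 9.25 and 6.11 to 7.86 FPKM in NC, Activin and Activin+HGF libraries, mostly from CD68, while PTPRC, the defining one, was at most at 0.02 FPKM. CD68 and LYZ were called higher than in NC in both, CD68 by log2 fold changes of 2.83 and 3.35 and LYZ by 2.74 (adjusted p = 0.0134) and 1.95 (adjusted p = 0.0349). They were 2 of 3 tested leukocyte markers, beside the shares of all tested genes just given. Fibroblast markers summed to 2.62 to 2.69, 4.58 to 6.04 and 2.88 to 3.65 FPKM, mostly COL1A1, with DCN at or near 0 and LUM at 0 or without a row, and the endothelial markers to at most 0.38 FPKM. COL1A1 was called higher with activin (log2 fold change 1.03, adjusted p = 0.00205). COL3A1 was called lower with activin (adjusted p = 0.00111), from 0.13 to 0.35 FPKM in NC to values listed at 0, and lower in Activin+HGF cells than in NC (log2 fold change -2.54, adjusted p = 0.0234). The hepatocyte, leukocyte and fibroblast sums moved with the groups, and their part in the results above was not tested.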

How the data were processed

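RNA from HCT116 cells was sequenced in 9 libraries, 3 for each group as labelled. Per the labels, cutadapt 1.9, HISAT2 2.0.4 and StringTie 1.3.4d were used by the authors, and the role of each, the genome build and the counting program are not given in the sources used here. A single table was deposited, with a raw count (not normalized) and an FPKM value, normalized by the authors to gene length and library size, for each gene and library. For the members, counts per FPKM and library total were equal within 0.984 to 1.039 between libraries. Gene coordinates are those of the table, and 41 of 50 members share a start or an end with GENCODE v29 on GRCh38.

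Counts were tested with edgeR 4.0.16 in R 4.3.3 (filterByExpr, TMM, glmQLFit and glmQLFTest) on all 9 libraries with group means, as no test is named in the methods of the study. DESeq2 1.42.0 and limma 3.58.1 (log2(FPKM + 0.1) and log2(FPKM + 1)) were alternatives, with another scaling, filters, thresholds, a block for the replicate number, fits on the 6 libraries of a comparison, and each library left out. Counts divided by 4 were added after the data were examined. On simulated data with the real means, the edgeR steps were tested before use. Standard errors were taken from fold change and F statistic and are approximate. Nothing says that libraries came from separate cultures, so p-values measure the spread between these libraries. Levels as CPM used TMM-scaled totals. Motifs and promoter windows were read from RefSeq (GRCh38.p14), and 100-base stretches from GENCODE v29 transcripts. Python 3.11.15, pandas 2.3.3 and matplotlib 3.10.9 were used.

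Members and gene lists were chosen with earlier results of these data known. All members could be named, and some genes that meet the rules are not reported here by name. Those called, and those with a mean of at least 1 FPKM in a group, were given library by library or by range, and other genes came only from lists of electron partners, glucuronate supply, regulators, other enzymes, pumps, relatives and cell type markers.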

Additional observations from a re-analysis of the deposited data

How the results depend on the processing

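The number of members called moved with the settings. For Activin against NC, 7 members were called, 2 with limma on log2(FPKM + 1), 4 at an adjusted p under 0.01 and 4 to 9 when single libraries were left out. Over all genes, 2394 were called there, and under the same settings 1199, 1421 and 1688 to 2651. For Activin+HGF against Activin, 1 was called, 3 with library totals, 2 with a CPM of at least 1 in 3 libraries, 0 without a filter, 0 with only the 6 libraries compared, 3 with DESeq2, 3 with limma on log2(FPKM + 0.1), 2 without a fold minimum, 0 at an adjusted p under 0.01 and 0 to 6 when single libraries were left out. By edgeR, 9 members had an unadjusted p under 0.05 in that comparison, beside 6313 of 20988 tested genes. Over all genes it had 1697 calls, 2124 with library totals, 1651 with the CPM filter and 1422 without a filter. There were 677 with only the 6 libraries compared, 2519 with DESeq2 and 1860 with limma on log2(FPKM + 0.1). Without a fold minimum 2698 were called, at an adjusted p under 0.01 452, and 606 to 2418 when single libraries were left out. For Activin+HGF against NC, 6 were called, 3 with limma on log2(FPKM + 0.1), 2 with log2(FPKM + 1), 3 at an adjusted p under 0.01 and 4 to 8 when single libraries were left out. Over all genes, 4519 were called there, and under the same settings 4154, 2238, 2973 and 3537 to 4699. Fewer libraries and a stricter threshold account by construction for part of this, and for the other settings the cause was not tested. Counts divided by 4, chosen after seeing the data, gave 8, 1 and 7, beside 2491, 1851 and 4477 over all genes.

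Members detected numbered 13 in NC, 15 in Activin and 11 in Activin+HGF cells. A minimum of 0.1 FPKM gave 21, 23 and 21, beside 51%, 50.3% and 47.2% of all 33861 genes. More than 3 counts in all libraries gave 30, 30 and 27, beside 58.8%, 56.8% and 54.9% of all genes. By that rule the members were near the background, so their low detection depends on the FPKM minimum. At least 1 FPKM gave 8 in NC, 10 in Activin and 8 in Activin+HGF cells, beside 33.5%, 32.9% and 29.5% of all genes. A level of 0.5 FPKM in any 1 library gave 14, 19 and 19, beside 44.6%, 48.4% and 43.6%. Under these 2 minima Activin+HGF cells did not have fewer members detected than NC cells. With single libraries left out, the members detected at 0.5 FPKM were 13, 15 to 17 and 11 to 15. The shares over all genes were then 39.5% to 39.9%, 39.2% to 41.4% and 36% to 37.9%.

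Same-numbered libraries of different groups did not deviate together (correlation -0.061 to 0.088 over 9 pairs), so the numbers were not taken as pairs. A fit with a block for the replicate number called 6, 1 and 5 members in the 3 comparisons, in the order above. Over all genes it called 2218, 1366 and 4222. Counts of replicates were further apart than sampling noise allows (at least 57.9 as chi-square over its degrees of freedom), so no pair was taken as a repeat deposit of 1 library, which does not show that they came from separate cultures. Over the 12 members called anywhere, in all 3 comparisons, 698 single-gene values stayed on their side of the threshold, 59 no longer passed it and 23 passed it anew. The sign differed from the reported one in 18 of these 780 values, all in 4 comparisons of single members that were not called under either setting and had reported log2 fold changes of at most 0.19 (CYP11A1, CYP24A1 and CYP4F12 in Activin+HGF against Activin, and CYP2R1 in Activin+HGF against NC). At these depths, members of a few counts cannot show changes of a few fold.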
